A study of Mus musculus with 8 samples.

Results

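Transcripts of prostaglandin synthesis, transport and reception were examined in lymphatic endothelial cells of mouse ear skin, untreated or with contact hypersensitivity. The members were the enzymes Pla2g4a, Ptgs1, Ptgs2, Ptges, Ptgis, Ptgds and Hpgd, the transporter Slco2a1 and the receptors Ptger2 and Ptger4. A probe set, which is a group of oligonucleotides reporting a single transcript region, was included when the platform annotation named exactly 1 gene and that gene was a member. This rule found 18 probe sets for 9 of the 10 genes, out of 34945 probe sets with 1 gene. No probe set naming Ptgs1 alone was found, and Ptgs1 was not analysed here.

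The cells came from ears of female FVB mice aged 8 to 10 weeks. They were sorted as CD31 and podoplanin positive cells without the leukocyte marker CD45, 4 samples per group, each pooled from 3 mice. The untreated group is described as healthy, and no vehicle or sensitised but unchallenged group was used here, so sensitisation, solvent and challenge cannot be told apart. The inflamed group had been sensitised with 2% oxazolone, a contact allergen, on abdomen and paws, and 1% oxazolone was put on the ears 5 days later, 10 µl on each side. Ears were taken 24 hours after this challenge, and an inflamed and an untreated sample were sorted and extracted on the same day as a pair. The 4 pairs had been selected for the quality of their RNA and cDNA. Both groups went through the same short collagenase digest and linear cDNA amplification, and each sample was measured on 1 array.

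Prostaglandins are made when cytosolic phospholipase A2 frees arachidonic acid from membranes, a cyclooxygenase turns it into prostaglandin H2, and a terminal synthase turns that into prostaglandin E2, prostacyclin, prostaglandin D2 or thromboxane. They act close to where they are made through G protein coupled receptors, and they are removed by uptake into cells followed by oxidation. In skin, prostaglandin E2 is known for vasodilation and for promoting the migration of dendritic cells to lymph nodes in contact hypersensitivity, and prostaglandins are known to modulate the pumping of lymphatic vessels.

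In inflamed skin, the inducible cyclooxygenase Ptgs2 and the inducible prostaglandin E2 synthase Ptges were called higher, in all 4 pairs. The fitted log2 changes were 6.06 ± 0.88 for Ptgs2 and 4.83 ± 0.71 for Ptges (moderated SE, n = 4 pairs). The size for Ptgs2 is not well measured, since 3 of its 4 untreated arrays were below background. It was 3.86 in the only pair with both arrays above background and 2.78 with 16 added to every signal. Outside the members, the prostacyclin receptor Ptgir was at least 15.7-fold higher. The prostacyclin synthase Ptgis differed by 0.01 ± 0.43 and did not pass. No other member passed the test in either direction. A change is the average over pairs of the inflamed minus the untreated log2 signal, tested with limma across 10843 genes with the pair as a block and called at a Benjamini-Hochberg adjusted p under 0.05.

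Levels are log2 values of the MAS5 signal, and differences between genes in level are not compared, since probe sets differ in sensitivity. Between 53.5% and 62.6% of probe sets per array lay above a background ceiling of 2.53 to 3.31, set from bacterial control probe sets, and the mean signal per array was 126.2 to 160.4. As a check of the sort, Prox1, Lyve1, Flt4 and Pdpn, which mark lymphatic endothelium, and Pecam1, the gene of CD31, were above this ceiling on all 8 arrays. The untreated and inflamed means were 11.44 and 12.00 for Pdpn, 12.14 and 11.96 for Lyve1, 12.30 and 11.93 for Flt4, 11.17 and 9.73 for Prox1, and 10.50 and 9.78 for Pecam1. Prox1 and Flt4 were lower in 4 of 4 pairs without passing in limma (adjusted p = 0.0618 and 0.139). The other 2 Prox1 probe sets were called lower, by -2.46 and -1.68 (adjusted p = 0.018 and 0.0065 over all probe sets). In pooled cells, fewer cells of a type and less RNA per cell cannot be told apart.

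Promoter sequences of Ptgs2, Ptges and Ptgir are shown as those of the cyclooxygenase, the synthase and the receptor that were called higher. That of Plaat3, also called higher, was not searched. They are the 250 bases before the RefSeq transcription start in GRCm38.p6 of the C57BL/6J reference, given 5′ to 3′ on the strand of the gene. Ptgs2 lies at chr1:150099781-150100030 on the plus strand, Ptges at chr2:30903298-30903547 on the minus strand and Ptgir at chr7:16906240-16906489 on the plus strand. Capitals mark every match to a searched motif.
Ptgs2: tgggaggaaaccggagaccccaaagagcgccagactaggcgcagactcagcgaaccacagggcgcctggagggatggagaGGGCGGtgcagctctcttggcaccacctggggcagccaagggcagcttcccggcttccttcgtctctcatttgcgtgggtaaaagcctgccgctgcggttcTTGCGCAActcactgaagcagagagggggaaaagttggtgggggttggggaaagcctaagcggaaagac
Ptges: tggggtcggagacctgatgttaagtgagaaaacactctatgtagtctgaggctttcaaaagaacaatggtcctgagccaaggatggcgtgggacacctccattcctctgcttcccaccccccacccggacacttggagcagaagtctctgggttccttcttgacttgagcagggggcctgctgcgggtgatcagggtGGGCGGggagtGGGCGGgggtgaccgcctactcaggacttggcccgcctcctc
Ptgir: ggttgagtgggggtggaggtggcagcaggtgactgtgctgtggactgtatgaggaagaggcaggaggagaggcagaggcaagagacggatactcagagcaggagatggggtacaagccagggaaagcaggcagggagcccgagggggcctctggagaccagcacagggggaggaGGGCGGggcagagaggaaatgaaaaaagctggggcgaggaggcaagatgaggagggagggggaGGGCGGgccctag
The motifs searched on both strands were the TATA box TATAAA, the cyclic AMP response element TGACGTCA with its contained shorter form CGTCA, the E-box CACGTG, the C/EBP palindrome TTGCGCAA, the GC box GGGCGG and the NF-kB consensus. TTGCGCAA was matched in Ptgs2 and begins 69 bases before the start. It occurs in 0.16% of 32851 promoter windows of this length. GGGCGG was matched 1 time in Ptgs2, 2 times in Ptges and 2 times in Ptgir, and it occurs in 32.74% of all windows. The other motifs, which occur in 12.37% (TATAAA), 1.55% (TGACGTCA), 6.02% (CACGTG), 17.77% (CGTCA) and 9.55% (NF-kB consensus) of windows, have no match in these 3 windows. Bases further upstream and bases after the RefSeq start were not searched. The absence of a match therefore does not mean that the promoter lacks the site. The window of Ptger4, searched as well and not shown because its probe sets disagreed, holds 4 matches to GGGCGG and 0 to the others. These matches describe letters in the reference and not binding.

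Ptgs2, cyclooxygenase 2, had log2 signals of 4.71, -0.38, -0.49 and -0.32 on untreated arrays 1 to 4 and 8.58, 5.12, 6.57 and 7.51 on inflamed arrays 1 to 4 (probe set 1417262_at). Every inflamed array was above every untreated one, and untreated array 1 was the only one of its group above the ceiling. The adjusted p in limma was 0.0046, and the pairs differed by 3.86, 5.51, 7.06 and 7.83. In pair 1, the only pair with both arrays above background, the difference was thus the smallest of the 4. In the other pairs the size of the difference rests on untreated values below background. When 16 was added to every signal before taking logs, which draws such low values together, the change was 2.78 (adjusted p = 0.00694).

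The second Ptgs2 probe set, 1417263_at, read 3.16, 1.42, -0.14 and 0.66 on untreated and 7.71, 6.25, 3.48 and 6.15 on inflamed arrays. Here too the groups did not overlap, although inflamed array 3 lay close above untreated array 1. Tested among all single probe sets, it differed by 4.62 ± 0.89 (adjusted p = 0.0162 in limma, higher in 4 of 4 pairs).

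Ptges, the microsomal synthase that converts the cyclooxygenase product into prostaglandin E2, had signals of 5.95, 1.02, 3.43 and 4.80 on untreated and 10.20, 8.08, 6.58 and 9.66 on inflamed arrays (probe set 1439747_at). The lowest inflamed value was above the highest untreated one, and 3 of 4 untreated arrays were above the ceiling. The adjusted p in limma was 0.0049, with differences of 4.25, 7.06, 3.15 and 4.86 in pairs 1 to 4. Like Ptgs2, Ptges was highest on array 1 within both groups.

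The other 2 Ptges probe sets gave changes of similar size. Probe set 1449449_at was at or below the ceiling on all untreated arrays, between 0.03 and 0.93, and reached 5.50, 5.93, 3.98 and 3.73 on inflamed arrays, at least 3.53-fold higher (adjusted p = 0.0254 in limma over all probe sets). Probe set 1449450_at read 3.09, 2.35, -0.25 and 6.20 on untreated and 8.05, 6.37, 6.32 and 8.03 on inflamed arrays, a change of 4.34 ± 0.88 (adjusted p = 0.02). In it untreated array 4 nearly met the lowest inflamed array, at 6.20 against 6.32.

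**Figure D1:**
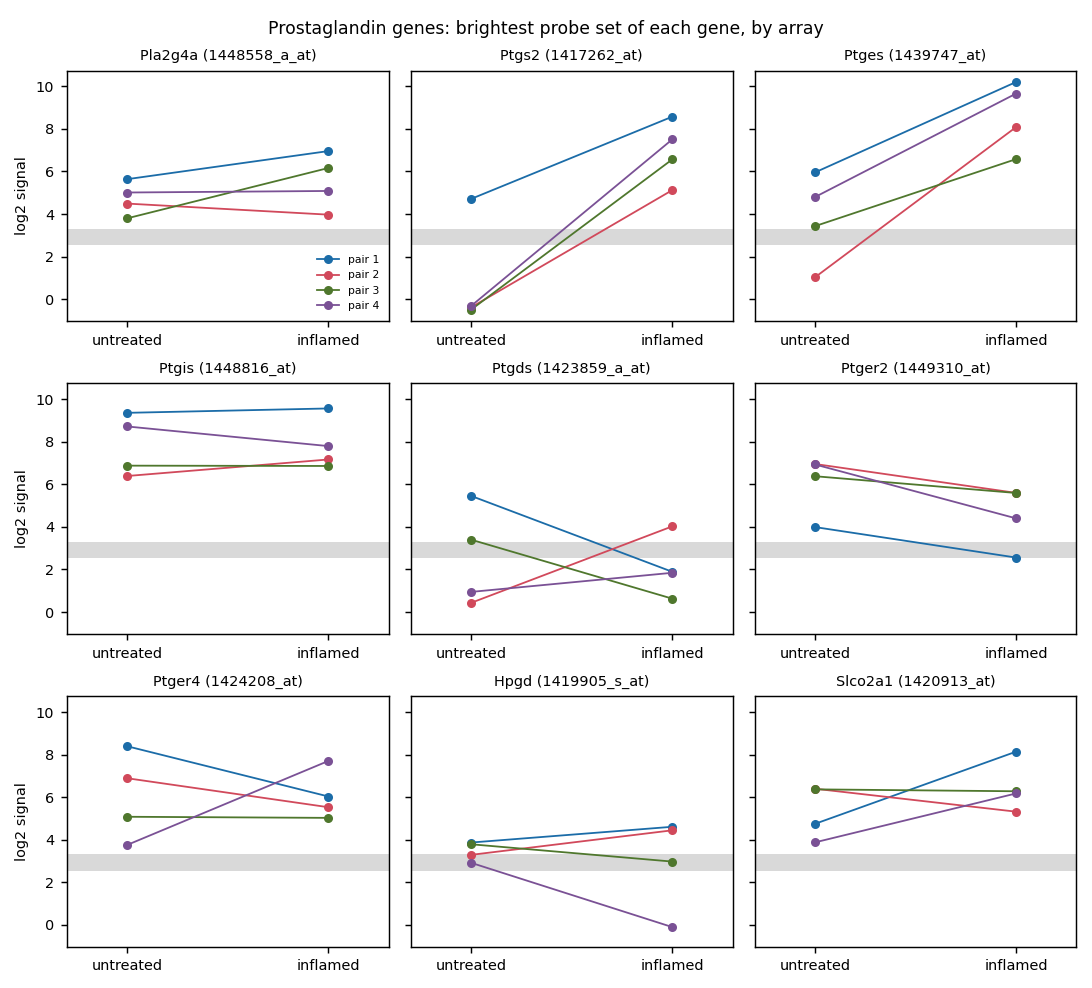
Log2 signal of the brightest probe set of each measured member on each array, with lines joining the 2 arrays of a pair and the grey band spanning the background ceilings of 2.53 to 3.31. Ptgs2 and Ptges rise in all 4 pairs, Ptger2 is lower in all 4 without passing the test, and the lines of the other members run in both directions.

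A gene was tested when its brightest probe set averaged at least 3.30 over the 8 arrays, and 7 members met this. Of them 2 were called higher and 0 lower in limma, against 3.91% of all tested genes higher and 3.02% lower, and at an unadjusted p under 0.05 the only lower member was Ptger2. Over all genes 56.4% of calls were higher, or 76.0% after median centring of the arrays, which moved the median change from -0.09 to 0.22. Ptgs2 and Ptges were called higher under both. Ptgs2 passed this filter only through its inflamed arrays, since its untreated mean was 0.88. Without the filter all 9 measured members were tested, and again 2 were higher and 0 lower, against 2.18% and 1.66% of 18193 genes. Their median change was 0.04, against -0.04 for all genes in that fit. Among the 18 single probe sets, 5 were called higher and 0 lower, against 1.6% and 1.3% of all probe sets. All 5 belong to Ptgs2 and Ptges, so they repeat the calls of these genes on the same arrays and are not independent. In 6 of the 18, those 5 and a Ptger4 probe set, the inflamed arrays lay wholly above the untreated ones, against 3.99% of all probe sets. In 0 they lay wholly below, against 4.73% of all probe sets.

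Upstream of the cyclooxygenase, Pla2g4a, the cytosolic phospholipase A2, had signals of 5.64, 4.49, 3.80 and 5.01 on untreated and 6.96, 3.97, 6.17 and 5.08 on inflamed arrays. The groups overlapped, and 3 of 4 pairs were higher. The change of 0.81 ± 0.73 did not pass (adjusted p = 0.577 in limma).

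Among the other terminal synthases, Ptgis, which makes prostacyclin, read 9.36, 6.39, 6.88 and 8.72 on untreated and 9.57, 7.17, 6.86 and 7.80 on inflamed arrays. All 8 values were above the ceiling, and array 1 was the highest of both groups. Its adjusted p was 0.993, and 2 of 4 pairs were higher. Ptgds, the lipocalin-type synthase of prostaglandin D2, was dim. Its probe set 1423859_a_at was above the ceiling on 2 untreated and 1 inflamed arrays, ranging from 0.43 to 5.46, and 1423860_at was at or below the ceiling on all 8 arrays.

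The receptors for prostaglandin E2 that raise cyclic AMP did not pass. Ptger2, which encodes EP2, read 3.99, 6.96, 6.38 and 6.94 on untreated and 2.56, 5.60, 5.60 and 4.40 on inflamed arrays. It was lower in 4 of 4 pairs, by 0.79 to 2.53 in size, yet the groups overlapped, with array 1 the lowest of both. The change was -1.53 ± 0.65, with an unadjusted p of 0.0432 and an adjusted p of 0.21 in limma.

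For Ptger4, which encodes EP4, the 2 probe sets disagreed. The brighter one, 1424208_at, read 8.39, 6.89, 5.08 and 3.76 on untreated and 6.03, 5.53, 5.03 and 7.71 on inflamed arrays, a change of 0.04 ± 0.96 (adjusted p = 0.987) that was positive in 1 of 4 pairs. Without pair 4, which alone was higher, the change was -1.26 (adjusted p = 0.405). The dimmer one, 1421073_a_at, read 2.12, 3.62, 1.57 and 2.40 on untreated and 6.88, 5.43, 4.91 and 6.18 on inflamed arrays. There the groups did not overlap, with 1 of 4 untreated and 4 of 4 inflamed arrays above the ceiling, and pairs differed by 1.80 to 4.75. Its change of 3.42 ± 0.88 missed the threshold over all single probe sets (adjusted p = 0.0665 in limma). No direction for Ptger4 can be given from these 2 probe sets together.

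Inactivation and uptake were measured through Hpgd, the dehydrogenase that oxidises prostaglandins, and Slco2a1, the transporter that carries them into cells. The Hpgd probe sets were close to background. Probe set 1419905_s_at had means of 3.47 ± 0.45 untreated and 2.98 ± 2.18 inflamed (SD, n = 4), and 1419906_at of 3.25 ± 1.71 and 2.78 ± 2.92. Each was below the filter, and with no filter the Hpgd change of -0.49 ± 0.95 had an adjusted p of 0.872.

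The brightest Slco2a1 probe set, 1420913_at, read 4.75, 6.40, 6.37 and 3.88 on untreated and 8.14, 5.32, 6.28 and 6.18 on inflamed arrays. Pairs 1 and 4 were higher and pairs 2 and 3 lower, and the change of 1.13 ± 0.82 did not pass (adjusted p = 0.471). The 3 other Slco2a1 probe sets changed by -0.14 ± 0.85, -0.46 ± 1.23 and 1.19 ± 1.46, so neither the pairs nor the probe sets shared a direction. Pair 1 was higher in all 4 probe sets, by 0.40 to 7.49.

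**Figure D2:**
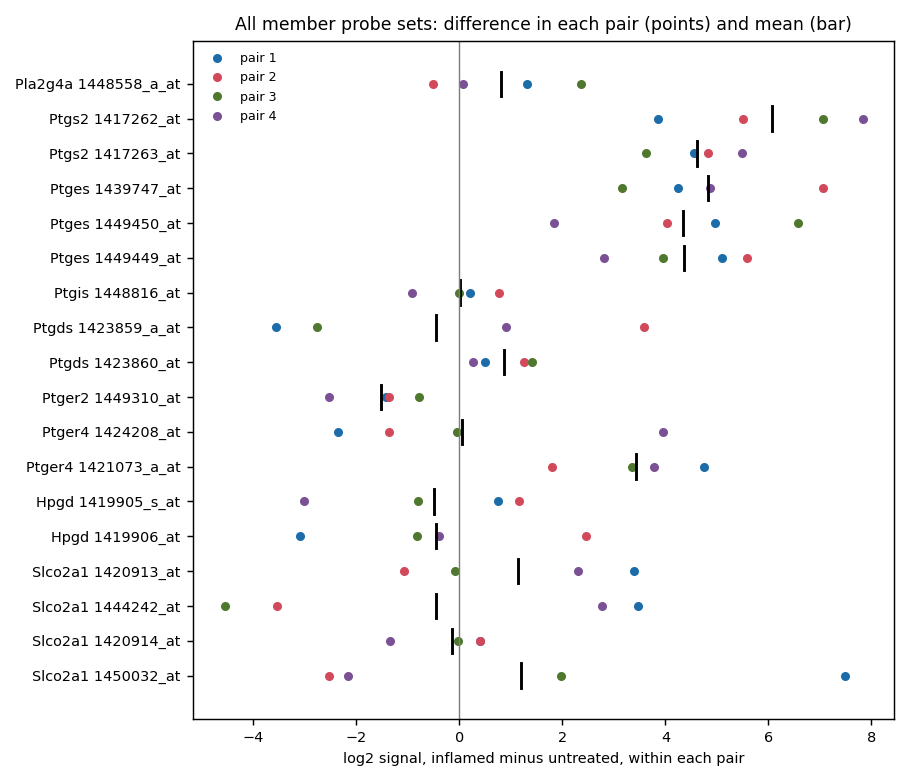
Difference in log2 signal, inflamed minus untreated, in each pair (points) and on average (bar) for all 18 member probe sets. The 2 Ptgs2 and 3 Ptges probe sets, the dimmer Ptger4 probe set and the below-background Ptgds probe set 1423860_at lie to the right of 0 in every pair, while the 4 Slco2a1 probe sets scatter on both sides.

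Of 51 other genes of the eicosanoid pathway that were listed, 46 had a probe set of their own and 23 passed the filter. Of these 23, 2 were called higher and 1 lower, against 3.91% and 3.02% of all tested genes. Their median change was 0.21, against -0.09 for all tested genes. Without the filter, 2 of 46 were called higher and 1 lower, against 2.18% and 1.66% of all genes, so these counts lie near the background.

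Among the other prostanoid receptors, Ptgir had signals of 2.08, 1.91, 1.44 and 2.34 on untreated arrays, all below the ceiling, and 7.89, 6.12, 5.97 and 7.79 on inflamed arrays. The groups were far apart, and the fitted change was 5.00 ± 0.72 (adjusted p = 0.0045 in limma, higher in 4 of 4 pairs), or 2.83 with 16 added to every signal (adjusted p = 0.00611). Ptgir too passed the filter only through its inflamed arrays. Its call held with no filter, where its adjusted p was 0.00495.

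The remaining receptors showed no call. Ptgfr, the receptor of prostaglandin F2alpha, had a mean of 5.54 ± 1.41 untreated and 5.53 ± 1.19 inflamed (SD, n = 4), a difference of -0.01 ± 0.87 whose sign turned under cyclic loess, median centring and quantile normalization. Ptger1, which encodes EP1, averaged 4.43 ± 0.81 and 2.63 ± 2.06 (SD, n = 4; adjusted p = 0.352 in limma). The brighter probe set of Ptger3 and those of Ptgdr, Ptgdr2 and Tbxa2r, the receptors EP3, for prostaglandin D2 (2 genes) and for thromboxane, were below the filter. Their untreated means were 2.83, 2.97, 1.40 and 3.43, and their inflamed means 2.41, 2.80, 2.30 and 2.14.

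Of the other synthases, Akr1c18, an aldo-keto reductase known as hydroxysteroid dehydrogenase with prostaglandin F synthase activity, read 9.78, 7.01, 8.81 and 6.67 on untreated arrays. On inflamed arrays it read 1.14, 7.29, 0.88 and 1.00. It was below the ceiling on 3 inflamed arrays, while pair 2 showed no fall, and the change of -5.49 ± 1.31 passed (adjusted p = 0.0376, lower in 3 of 4 pairs). The call ended without the intensity trend of the variance (adjusted p = 0.154), without pair 1 (0.158), without pair 3 (0.156) and without pair 4 (0.0732). The mean of 9 keratinocyte markers, at 5.72 to 7.23 on untreated and 3.48 to 4.96 on inflamed arrays, was lower in all 4 pairs (3 of 7 tested called lower). Inflamed array 2 was highest of its group in both. The part of keratinocyte RNA in this fall was not tested.

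Ptges2, a second prostaglandin E synthase, changed by 0.50 ± 0.65 (adjusted p = 0.716). The thromboxane synthase Tbxas1 differed by 0.13 ± 0.84, Cbr1, a carbonyl reductase that acts on prostaglandins, by -1.72 ± 0.84, and Prxl2b, a prostamide and prostaglandin F synthase, by -0.79 ± 0.81. Hpgds, the haematopoietic prostaglandin D synthase, was below the filter and read -0.37 to 3.70 on untreated and 0.08 to 6.79 on inflamed arrays. None of these was called, and the differences between their changes and that of Ptges were not tested.

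In export and breakdown, 0 of 4 tested genes were called in limma, with 1 at an unadjusted p under 0.05. This was Cbr3, a carbonyl reductase, which differed by 1.83 ± 0.81 (unadjusted p = 0.0498, adjusted p = 0.227). The exporter Abcc4 differed by 1.32 ± 0.78 and the reductases Ptgr1 and Ptgr2 by 0.57 ± 0.64 and -0.40 ± 0.56.

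Among 8 tested phospholipases A2 and other lipases that can free arachidonate, Plaat3, an adipose phospholipase A2, was the only one called. It read 7.54, 6.64, 7.38 and 8.85 on untreated and 10.67, 11.01, 10.66 and 10.65 on inflamed arrays, far tighter in the inflamed group, with a change of 3.14 ± 0.40 (adjusted p = 0.0022). Its second probe set gave 3.51 (adjusted p = 0.0014 over all probe sets), and the call ended without the intensity trend (adjusted p = 0.0609). Pla2g6, a calcium-independent phospholipase, was lower in 4 of 4 pairs by a mean of 3.27 but did not pass (adjusted p = 0.13), and its 2 other probe sets changed by 0.77 and 0.24. Mgll, monoacylglycerol lipase, which frees arachidonate from an endocannabinoid, changed by -1.60 ± 0.56 (adjusted p = 0.134) and Pla2g5 by -1.03 ± 0.65 (adjusted p = 0.41).

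The lipoxygenase branch, which turns arachidonate into leukotrienes and related lipids, was mostly dim: 3 of 13 measured genes passed the filter and 0 were called in limma, with 1 of them, Alox12e, at an unadjusted p under 0.05. Alox12e, an epidermal lipoxygenase, was lower in 4 of 4 pairs and below the ceiling on all inflamed arrays, at least 4.24-fold lower (adjusted p = 0.0544). Its adjusted p was 0.0423 without the pair block. Alox5ap, the helper protein of leukotriene synthesis, changed by 1.35 ± 0.77 and Lta4h by 0.21 ± 0.59. The dimmer Lta4h probe set 1426807_at was lower in 4 of 4 pairs, by -2.65 ± 0.86 (adjusted p = 0.149 over all probe sets).

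**Figure D3:**
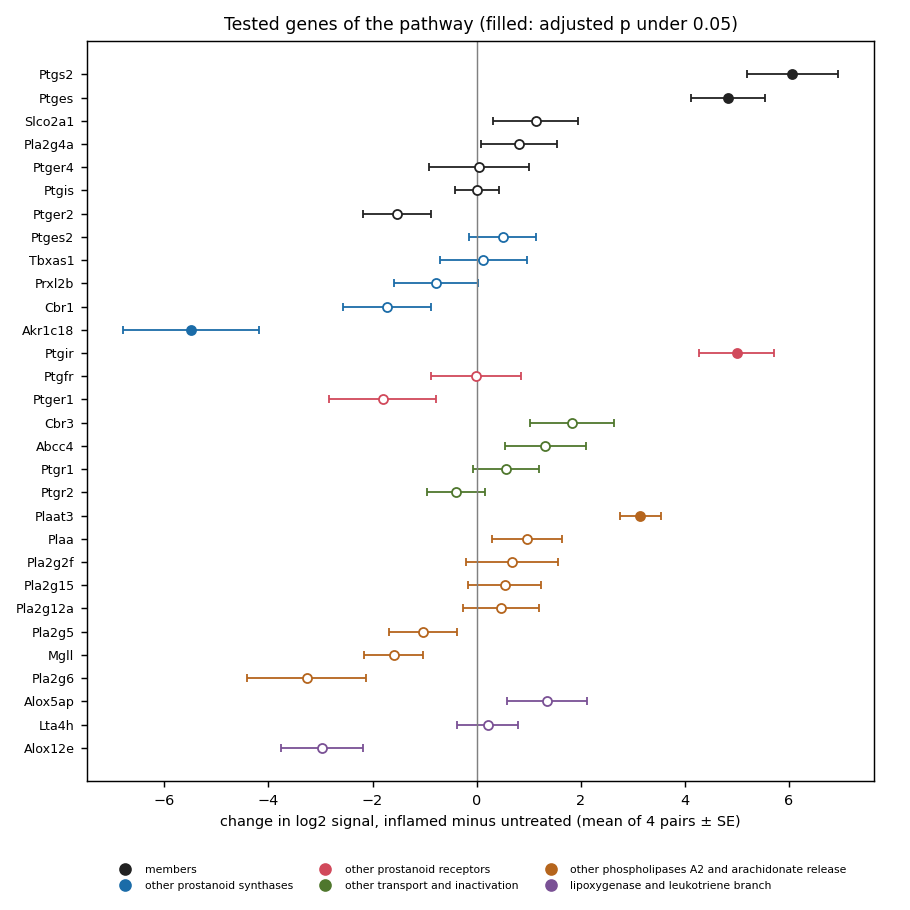
Change in log2 signal, inflamed minus untreated, for the 7 tested members and 23 other tested pathway genes, with moderated SE over 4 pairs and filled symbols for an adjusted p under 0.05. Filled symbols are Ptgs2, Ptges, Ptgir, Plaat3 (higher) and Akr1c18 (lower).

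Some marker lists of other cells were, like Ptgs2, Ptges and Ptgir, higher in the inflamed group. The mean level of 10 neutrophil markers was 1.39 to 2.55 on untreated and 4.00 to 4.94 on inflamed arrays, and that of 5 pan-leukocyte markers 2.15 to 3.66 and 5.86 to 8.18. Monocyte and macrophage markers (11 genes) ranged from 2.76 to 5.05 and from 5.25 to 6.41, and fibroblast markers (9 genes) from 7.10 to 9.45 and from 8.37 to 10.17. These 4 lists were higher in 4 of 4 pairs, for which the exact two-sided sign-flip permutation p is 0.125, the smallest that 4 pairs allow. By contrast, the untreated and inflamed means were 2.24 and 2.20 for lymphocyte markers and 4.62 and 4.74 for pericyte and smooth muscle markers. Those of keratinocyte markers were 6.56 and 4.08. Of the 10 neutrophil markers, 1 was above the ceiling on at least 3 untreated arrays and 6 on at least 3 inflamed arrays. All 3 that were tested, S100a8, S100a9 and Il1b, were called higher. These passed the filter only through their inflamed arrays, with untreated means of 1.49, 2.27 and 0.85, which favoured a call of higher. The other neutrophil markers were below the filter, and Ngp and Elane were above the ceiling on 0 inflamed arrays. Of the 11 monocyte and macrophage markers, 5 were above it on at least 3 untreated and 8 on at least 3 inflamed arrays, and 1 of 8 tested, Ctss, was called higher. Of the pan-leukocyte markers, Cd53 was called higher among 3 tested. Cd53 too passed the filter only through its inflamed arrays, with an untreated mean of 0.90. Ptprc, the gene of CD45, was below the ceiling on all untreated arrays and above it on 3 inflamed ones.

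Mast cells and fibroblasts are known sources of prostaglandins. The mean of 9 mast cell markers was 3.11 in untreated and 3.51 in inflamed samples, higher in 3 of 4 pairs. Of them 3 were tested and 1 was called higher, the histidine decarboxylase Hdc, by 6.11. The rise of the list mean rests on Hdc. Among the other mast cell markers, the inflamed mean was higher for Cma1, Tpsb2 and Ms4a2. It was lower for Mcpt4, Cpa3, Tpsab1, Kit and Gata2. The mast cell proteases differed in detection. Cma1 was above the ceiling on 2 untreated and 3 inflamed arrays, Tpsb2 on 3 and 3, and Mcpt4, Cpa3 and Tpsab1 on 1 and 0 each. Kit, below the filter, was above the ceiling on 4 untreated arrays and 1 inflamed array. Of the 9 fibroblast markers, 7 were above the ceiling on at least 3 untreated and 9 on at least 3 inflamed arrays. They ran from Col1a2, the brightest, at 11.80 in untreated and 12.04 in inflamed samples, to Col14a1 at 2.86 and 4.07. Among the 9, 1 marker, Lum, was called higher. The 8 lymphatic markers averaged 11.36 to 11.74 on untreated and 9.97 to 11.03 on inflamed arrays, lower in 4 of 4 pairs, and 4 of the 8, Mmrn1, Nrp2, Reln and Fxyd6, were called lower. The mean of 10 pan-endothelial markers was 9.98 untreated and 9.04 inflamed, with 4 called lower. That of 8 blood endothelial markers was 6.46 and 6.97, higher in 3 of 4 pairs. Of 7 tested, Car4 was called higher and 3, Aqp1, Efnb2 and Gpihbp1, lower. Car4 passed the filter only through its inflamed arrays. The log2 ratio of 3′ to 5′ signal of Gapdh, a sign of RNA integrity and amplification, was also lower in 4 of 4 pairs, at 3.85 against 3.06 on average. That of Actb averaged -0.08 in untreated and -0.07 in inflamed samples and was lower in 2 of 4 pairs. The part of these other cells and of RNA quality in the changes of the prostaglandin genes was not tested.

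**Figure D4:**
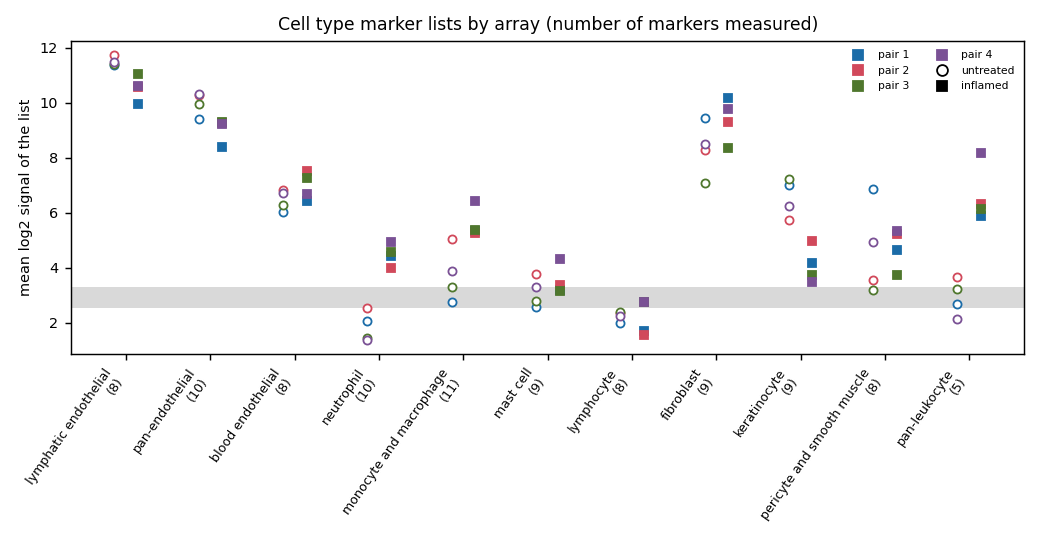
Mean log2 signal of each cell type marker list on each array, open circles for untreated and filled squares for inflamed arrays, coloured by pair, with the number of measured markers in brackets and the grey band spanning the background ceilings. The neutrophil, monocyte, fibroblast and pan-leukocyte lists are higher and the lymphatic, pan-endothelial and keratinocyte lists lower in all 4 pairs.

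The tested genes whose profiles over the 8 arrays were most like those of the called members were found by the root mean square (RMS) difference of log2 signals after centring each gene on its own mean. Closest to Ptgs2 were Dio2, a deiodinase that activates thyroid hormone, at an RMS difference of 0.87, Rtp4, an interferon-inducible receptor transporter, at 1.27, and Rab26os at 1.40. For comparison, Ptgs2 itself spanned 9.07 over the arrays. Closest to Ptges were the chemokine receptor Cxcr4 at 0.72, Dio2 at 0.85 and the lysosomal channel Mcoln2 at 0.86. Ptges ranked 10 among 10842 genes in likeness to Ptgs2, at 1.53, and Ptgs2 ranked 50 in likeness to Ptges. This measure depends in large part on the size of the group difference. Both genes were picked as called with a large one, so near ranks are no separate sign of a link. For Ptgs2 the measure also rests on untreated values below background.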

How the data were processed

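The deposited table gives each probe set a linear intensity on every array, computed by MAS5 per the submitters' processing notes. Its version and scaling target were not stated in the labels. Array medians of log2 signal differed by 0.468, under a limit of 0.5, so the authors' scaling was kept. This difference ran along the comparison. The medians were 3.56 to 3.74 on untreated and 3.27 to 3.44 on inflamed arrays, every inflamed one below every untreated one. Of 45101 probe sets, 34945 named 1 gene. Dim probe sets, whose average over the arrays was under 3.30 (the median probe set), were left out, and the brightest represented its gene. limma 3.58.1 in R 4.3.3 (lmFit, eBayes with intensity trend, two-sided) was fitted across 10843 genes with the pair as a fixed block. The same fit was then run on simulated data built from the gene means and the spread of the real fit. There it recovered 4%, 34%, 60% and 86% of simulated log2 changes of 1, 2, 3 and 4. Changes of 1 to 2 were thus mostly missed in the simulated data. Fewer genes were changed there than were called in the real data, and genes of all levels were pooled, so recovery in the real data can differ. Among bright genes, Mmrn1 and Nrp2 were called at changes of -1.20 and -1.71. A gene that did not pass need not be unchanged. Single probe sets were tested in a fit over all 34945. The block follows the series' design text, which has each pair sorted and extracted on 1 day. Deviations from group means correlated at 0.16, -0.0012, 0.082 and 0.032 within pairs. No 2 arrays were identical. Samples are pools of mice, so p-values refer to pools.

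The background ceiling of an array is the 95th percentile of 27 bacterial control probe sets outside the hybridisation spike-ins, chosen with the values known. "At least" folds set the brighter mean against the mean ceiling of the dimmer group. The number of arrays limits the precision. Named were all members, called pathway genes, prostanoid synthases and receptors above the ceiling on at least 1 array, up to 4 genes of smallest p in each sublist, the 3 nearest profiles of each called member and 5 sort markers. Marker genes beyond these, and the motifs CGTCA and GGGCGG, were chosen after the values were seen. The members and lists were chosen with earlier results of these data known. Of the listed names, Pla2g16 was matched as Plaat3 through the RefSeq gene table. Promoters were taken from RefSeq (GRCm38.p6). Alternatives changed the block, normalization, trend, filter, probe set rule and pseudocount, and left out each pair.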

Additional observations from a re-analysis of the deposited data

Results flagged for a closer look

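Within groups of 4 arrays, a single array stood apart from the other 3 by Dixon's criterion in 8 of 84 groups examined, where chance flags about 1 in 20. Ptgs2 (1417262_at) was 4.71 on untreated array 1, the highest of its group, with the next value at -0.32. Slco2a1 (1420914_at) was 5.24 on untreated array 4, with the next at 3.95. Akr1c18 was 7.29 on inflamed array 2, with the next at 1.14. Ptgfr was 7.65 on untreated array 2, with the next at 5.09. Cbr3 was 4.57 on inflamed array 3, the lowest, with the next at 6.51. Plaat3 was 11.01 on inflamed array 2, a gap of small absolute size to the next value of 10.67. Mgll was 7.65 and Lta4h 4.85 on untreated array 1, each the lowest of its group, with the next values at 8.26 and 5.82. The causes were not tested.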

How the results depend on the processing

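Ptgs2, Ptges and Ptgir kept their direction and call in every alternative that tested them. Their changes ranged from 2.78 to 6.80, from 3.56 to 5.39 and from 2.83 to 5.33, with adjusted p from 0.00267 to 0.0329, from 0.00171 to 0.0472 and from 0.000903 to 0.0317. The stricter filter (mean log2 of at least 5) left Ptgs2 and Ptgir out by its construction, giving 1 member and 1 other pathway gene higher. Without the intensity trend 1 other pathway gene was higher and 0 lower. The lower count was 2 with the mean of probe sets, without the replicate block and with a random replicate block, and 0 to 1 with a pair left out. Without the replicate block 2 members were higher and 0 lower.

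Over all genes, 424 higher and 328 lower became 719 and 227 under median centring (76.0% higher against 56.4%, with the median change moving from -0.09 to 0.22), 94 and 47 without the trend, 384 and 301 without the replicate block, and 208 to 306 and 126 to 198 with a pair left out. Signs turned only for changes that had not passed. Ptgis gave -0.0028 with 16 added, and -0.24 to 0.32 with a pair left out. Ptger4 gave -0.084 with 16 added and -1.26 to 0.84 with a pair left out. The Slco2a1 probe sets gave -0.14 and -0.46. Tbxas1 gave -0.56 to 0.73 and Ptgr2 -0.61 to 0.042 with a pair left out, and a dim Ptgr2 probe set 0.56. Ptgfr gave 0.22 (cyclic loess), 0.29 (median centring), 0.22 (quantile), -0.75 to 1.00 with a pair left out, and 0.33 and 0.028 in other probe sets. Pla2g6 gave 0.77 and 0.24 in other probe sets, Lta4h -1.22 as a mean and -2.65 in another probe set, and Lyve1 0.12 under median centring. The causes were not tested. Signals near the ceiling limit what can be said of Ptgds, Hpgd and most lipoxygenase genes.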
